A study of Mus musculus with 12 samples.

Results

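Guanylin signalling and intestinal anion secretion are described here through 9 genes measured in small intestine tissue of mice. The mice were given the bile acid tauroursodeoxycholic acid (TUDCA) or vehicle. The genes encode the peptide hormones guanylin (Guca2a) and uroguanylin (Guca2b), their receptor (Gucy2c), the chloride channel Cftr, the anion exchangers Slc26a3 and Slc26a6, the sodium/proton exchanger Slc9a3, and the loaders Slc12a2 and Slc4a4, which bring chloride and bicarbonate into the cell. Members were the probe sets annotated to exactly 1 gene, that gene being on the list. All 9 genes had 1 such probe set, out of 21408 genes measured in this way.

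The 6 TUDCA arrays came from wild-type BALB/c mice injected every day into the peritoneal cavity with 200 mg/kg TUDCA. The 6 vehicle arrays came from wild-type BALB/c mice given the same volume, 200 µl, without the bile acid. Mice of both groups had been irradiated and had received bone marrow and T cells of C57BL/6N donors, a model of acute graft-versus-host disease, and their intestine was taken on day 14. No group without transplantation was analysed here, so the values describe a gut under attack by donor T cells with and without TUDCA. The labels state no age, and nothing beyond the sample numbers says that each array is a separate mouse.

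Guanylin and uroguanylin are small peptides released by intestinal epithelial cells into the lumen. Both bind guanylate cyclase C, the product of Gucy2c, on the brush border, and the cyclase then makes cyclic GMP. Cyclic GMP acts through a protein kinase to open Cftr, which lets chloride and bicarbonate out, and to inhibit Slc9a3, which takes sodium in, so that salt and water move towards the lumen. Slc26a3 and Slc26a6 exchange luminal chloride for bicarbonate, while Slc12a2 and Slc4a4 supply the ions from the blood side.

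Of the 9 genes, 1 was higher with TUDCA and 1 lower after adjustment over all 23991 probe sets. Guca2a rose by a log2 difference of 0.30, and Slc26a6 fell by 0.35. Guca2b, the sister hormone, had a difference of 0.02, and the receptor and the channel were also within 0.10 log2 units of no difference. Slc9a3 stood at −0.55 ± 0.20 (SE) and did not pass. Among all probe sets 1.00% were called higher and 1.52% lower, or 2.52% in either direction. The median log2 difference was −0.08 over the 9 genes and 0.01 over all probe sets. With only 9 genes, the calls stand beside these shares and were not tested as a property of the list.

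Values are log2 expression after RMA, an array normalisation that makes the arrays' distributions alike, and a difference is TUDCA minus vehicle in log2 units. Sample numbers in the labels fall into a low range (2 TUDCA and 4 vehicle arrays) and a high range (4 TUDCA and 2 vehicle arrays), whose meaning the labels do not give, and each difference was fitted in limma with the range as a term. Adjusted p-values are Benjamini-Hochberg values over all probe sets, two-sided, with a threshold of 0.05. Array medians lay between 5.90 and 5.95, and the lowest value of any of the 9 genes was 8.15, so none lay near the lower end of the scale. Correlations between arrays lay from 0.984 to 0.993, and the number of arrays limits the precision.

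The description field of the labels names reticular cells, whereas the source and tissue fields name small intestine. Of the 5 measured markers of the distal small intestine, 4 averaged above 11 in both groups, among them the bile acid binding protein Fabp6 (12.89 ± 0.25 with TUDCA and 12.99 ± 0.20 with vehicle, SD, n = 6 each) and the bile acid transporter Slc10a2 (11.10 ± 0.14 with TUDCA and 11.08 ± 0.14 with vehicle, SD, n = 6 each). Neither passed the test in limma (adjusted p = 0.915 and 0.997). The other one, Cyp2b10, averaged 4.42 with TUDCA and 4.13 with vehicle, below the array medians. Among 7 proximal small intestine markers, Ces2b (7.21 with TUDCA, 7.36 with vehicle) and Gata4 (6.17 with TUDCA, 6.28 with vehicle) averaged above the array medians. Onecut2, Pdx1, Lct, Cyp8b1 and Fabp1 averaged below them in both groups, from 5.14 (Onecut2 with TUDCA) to 5.80 (Cyp8b1 with vehicle). Of 7 reticular cell markers, the transcription factors Foxc1 (4.61 with TUDCA, 4.50 with vehicle) and Ebf3 (5.86 with TUDCA, 5.76 with vehicle) averaged below the array medians. The other 5 averaged above them, from Adipoq (6.17 with TUDCA, 6.02 with vehicle) to Kitl (8.54 with TUDCA, 8.45 with vehicle), and none of the 7 was called in limma. In whole tissue, fewer cells of a type and less RNA per cell cannot be told apart, which holds for every gene below.

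The hormone genes lie next to each other on mouse chromosome 4, with no other protein-coding gene annotated between them and 21213 bases between their start sites. A long noncoding RNA gene, Gm35761, is annotated across the start of Guca2b, so RNA of either could reach a probe there. Their promoter windows are shown because Guca2a was called and its neighbour Guca2b was not, although the difference between their changes did not itself pass. Each window holds 250 bases before the annotated start and 50 after it, from RefSeq on build GRCm38.p6, a C57BL/6J sequence rather than that of the BALB/c recipients. The Guca2a window is chr4:119637482-119637781 on the plus strand and the Guca2b window chr4:119658896-119659195 on the minus strand. Capitals mark matches to a GATA motif (AGATAA) or a short motif of the HNF1 factors (GTTAAT), searched on both strands.
Guca2a: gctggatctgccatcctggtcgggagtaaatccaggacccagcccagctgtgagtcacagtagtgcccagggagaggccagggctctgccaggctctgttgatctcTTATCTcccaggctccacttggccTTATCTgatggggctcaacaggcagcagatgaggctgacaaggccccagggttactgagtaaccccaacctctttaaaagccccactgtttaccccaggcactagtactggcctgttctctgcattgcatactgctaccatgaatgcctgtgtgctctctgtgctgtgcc
Guca2b: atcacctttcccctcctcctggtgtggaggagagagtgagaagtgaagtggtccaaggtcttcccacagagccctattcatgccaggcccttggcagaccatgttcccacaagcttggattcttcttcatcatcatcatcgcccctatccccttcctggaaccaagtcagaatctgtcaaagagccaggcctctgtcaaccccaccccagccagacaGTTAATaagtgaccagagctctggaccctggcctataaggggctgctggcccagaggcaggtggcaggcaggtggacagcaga

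The Guca2a window held 2 GATA matches, from bases −144 and −120 counted from the start site as 0, and no HNF1 match. The Guca2b window held 1 HNF1 match, from base −33, and no GATA match. Among 32851 promoter windows of the same length, 11.2% held the GATA letters and 7.1% the HNF1 letters. One more motif, the exact letters TATAAA of a TATA box, matched neither window and is found in 13.6% of all. Variants of these letters were not searched. Letters alone do not show binding, and windows were found for 7 of the 9 genes.

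Guanylin was the member that rose. Guca2a values ran from 11.77 over a median of 12.04 to 12.41 on TUDCA arrays, and from 11.70 over 11.86 to 12.05 on vehicle arrays. The ranges overlapped: TUDCA replicate 3 (11.77) lay below 4 of the vehicle values. Within its own number range, however, each of the 6 TUDCA arrays lay above the vehicle mean. Means were 12.06 ± 0.22 with TUDCA and 11.85 ± 0.14 with vehicle (SD, n = 6 each), and the fitted difference was 0.30 ± 0.07 (SE; 95% interval 0.16 to 0.45; adjusted p = 0.0304 in limma), or 1.23-fold.

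The size of the Guca2a difference was alike in both ranges, at 0.37 in the low range (12.29 with TUDCA, 11.93 with vehicle) and 0.24 in the high range (11.94 with TUDCA, 11.70 with vehicle). The low range was thus the higher one in both groups, and it holds most of the vehicle arrays. Without the range as a term the difference was 0.20 and the call ended (adjusted p = 0.341 in limma). It also ended when any 1 of 8 arrays was left out, namely TUDCA replicates 1, 2, 4 and 6 and vehicle replicates 1, 3, 4 and 6, with differences from 0.24 to 0.33 and adjusted p up to 0.138 without TUDCA replicate 2.

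**Figure D1:**
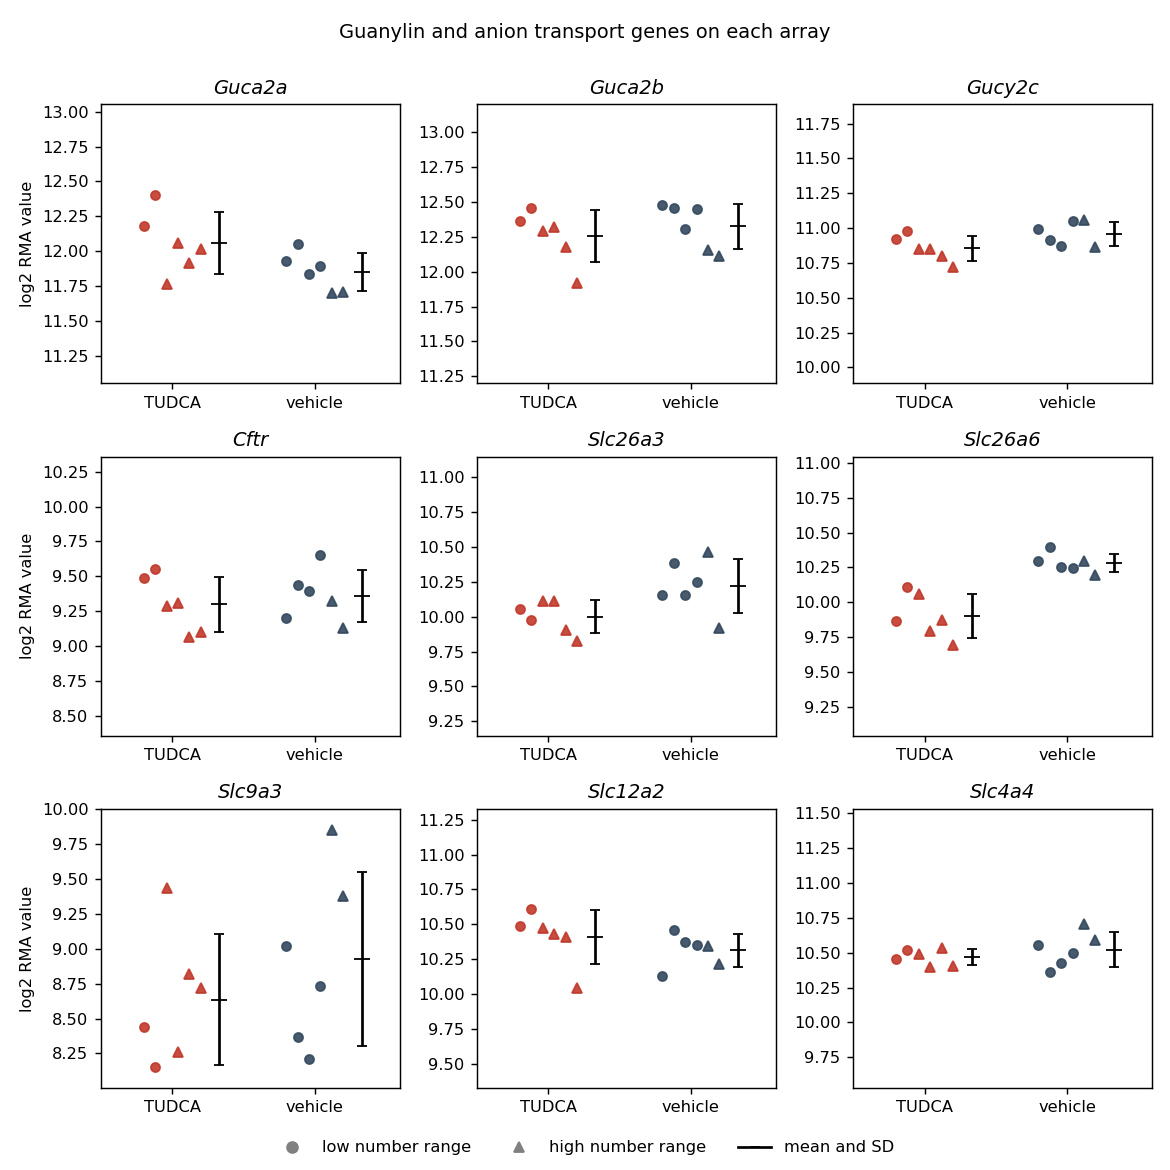
Log2 RMA value of each of the 9 genes on each array, TUDCA left and vehicle right, with circles for the low and triangles for the high number range and bars for mean and SD (n = 6). Every panel spans the same number of log2 units; Slc26a6 is the gene whose groups do not overlap, and Slc9a3 has the widest spread.

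Goblet cells, the mucus-secreting cells of the epithelium, are among the cells known to make guanylin. Of 10 goblet markers 3 rose and none fell: Spink4, a small secreted inhibitor of proteases (0.86 ± 0.16 SE, adjusted p = 0.0101 in limma), Agr2, a disulfide isomerase needed for mucin folding (0.56 ± 0.13 SE, adjusted p = 0.0342), and Spdef, a transcription factor of goblet cells (0.38 ± 0.08 SE, adjusted p = 0.0145). The mean log2 level of the 10 markers ran from 10.76 to 11.14 on TUDCA arrays and from 10.34 to 10.91 on vehicle arrays. The mucin gene Muc2 had a difference of 0.27 and Clca1 of 0.01, and neither passed. Other markers of the list pointed down without passing. Ccl6 stood at −0.33 ± 0.14 (SE; adjusted p = 0.323 in limma), below the vehicle mean of its range in 6 of 6 TUDCA arrays, and Fcgbp at −0.05. The part of goblet cell content in the Guca2a result was not tested.

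Uroguanylin did not pass the test. Guca2b values ran from 11.92 over a median of 12.31 to 12.46 with TUDCA and from 12.11 over 12.38 to 12.48 with vehicle. The groups lay over each other, with 4 TUDCA arrays above and 2 below the vehicle mean of their range. The difference was 0.02 ± 0.07 (SE; 95% interval −0.13 to 0.17; adjusted p = 0.954 in limma), so changes beyond 1.12-fold upwards lie outside the interval. Like Guca2a, Guca2b was higher in the low range in both groups (12.41 with TUDCA and 12.42 with vehicle, against 12.18 with TUDCA and 12.13 with vehicle in the high range).

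The receptor Gucy2c varied least among the genes of the hormone axis. It ran from 10.72 over 10.85 to 10.98 with TUDCA and from 10.86 over 10.95 to 11.05 with vehicle. In 5 of 6 TUDCA arrays it lay below the vehicle mean of its range. The difference of −0.08 ± 0.06 (SE; 95% interval −0.21 to 0.05) did not pass (adjusted p = 0.605 in limma). Levels under 0.867 or over 1.03 times that of vehicle lie outside the interval.

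Whether members changed unequally was asked of 8 pairs, by the difference of their log2 values on the same array, with a two-sided exact permutation test over the 225 relabelings within the number ranges (smallest p 0.00444). Counts of TUDCA arrays for a pair are relative to the vehicle mean of their number range. Guca2a changed relative to its receptor Gucy2c by 0.38 ± 0.08 (SE), in 6 of 6 TUDCA arrays (exact permutation p = 0.00444, the smallest possible, adjusted p = 0.0356 over the 8 pairs). Relative to Guca2b it changed by 0.28 ± 0.10 (SE), in 5 of 6 arrays, which did not pass (exact permutation p = 0.0222, adjusted p = 0.0889). The call of Guca2a against Gucy2c ended without the range term (adjusted p = 0.0606 by exact permutation) and in 11 of the 12 fits with 1 array left out, where fewer relabelings exist and the smallest adjusted p that 1 pair alone could reach is 0.0533 or 0.107. It stayed without TUDCA replicate 3 (0.42, adjusted p = 0.0267 by exact permutation).

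**Figure D2:**
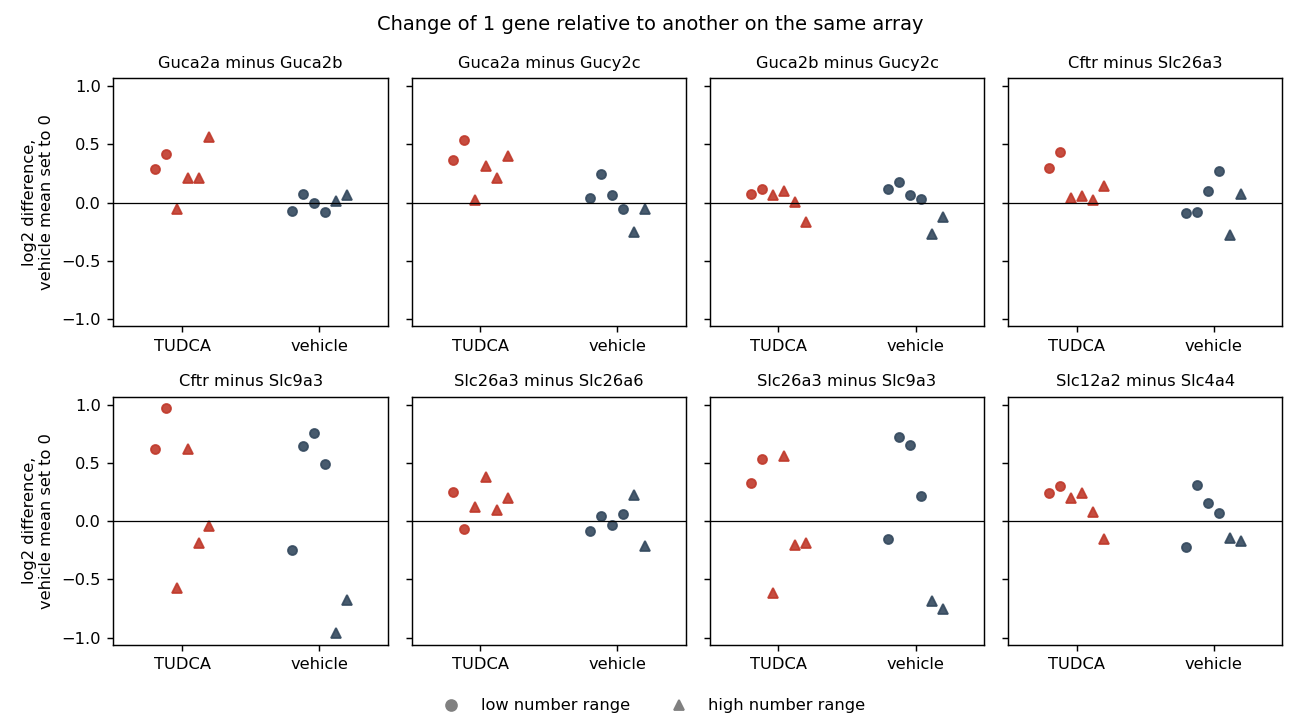
Difference between the log2 values of the named genes on the same array, with the vehicle mean of each pair set to 0, TUDCA left and vehicle right; circles are the low and triangles the high number range. Guca2a minus Gucy2c lies above the vehicle mean in all 6 TUDCA arrays, while the pairs with Slc9a3 spread widely in both groups.

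The chloride channel gene Cftr ran from 9.06 over 9.30 to 9.55 on TUDCA arrays and from 9.13 over 9.36 to 9.65 on vehicle arrays. The groups covered nearly the same stretch. Its difference was 0.03 ± 0.08 (SE; 95% interval −0.14 to 0.21; adjusted p = 0.916 in limma), with 0.10 in the low and −0.03 in the high range. Cftr, the exit for secreted chloride, thus showed no detectable change at this number of arrays, and a change of more than 1.15-fold upwards lies outside the interval.

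The anion exchanger Slc26a6, also called PAT1, which trades chloride for bicarbonate and oxalate at the brush border, was the member that fell. It ran from 9.69 over 9.87 to 10.11 with TUDCA and from 10.20 over 10.28 to 10.40 with vehicle. Every TUDCA array lay below every vehicle array, and it was the only one of the 9 genes whose groups did not overlap. Among all probe sets the groups failed to overlap in 1.98%, with TUDCA lower in 1.18% and higher in 0.800%. Means were 9.90 ± 0.16 with TUDCA and 10.28 ± 0.07 with vehicle (SD, n = 6 each), and the difference was −0.35 ± 0.07 (SE; 95% interval −0.51 to −0.20; adjusted p = 0.0172 in limma), a level 0.783 times that of vehicle.

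The difference was −0.31 within the low range (9.99 with TUDCA, 10.30 with vehicle) and −0.39 within the high range (9.85 with TUDCA, 10.25 with vehicle). Vehicle values of Slc26a6 lay close together in both ranges, and the call stayed without the range term (−0.38, adjusted p = 0.0104 in limma). It ended without TUDCA replicate 1 (−0.32, adjusted p = 0.0867) and stayed when any of the other 11 arrays was left out (adjusted p up to 0.0473). Absorptive enterocytes carry Slc26a6. Of 13 markers of these cells 1 fell, the brush border peptidase Anpep (−0.23 ± 0.05 SE, adjusted p = 0.0202 in limma), and none rose. Differences over the list ran from −0.33 (Fabp1) to 0.16 (Apoa4), with a median of −0.11. Krt20 pointed up without passing (0.15 ± 0.06 SE, adjusted p = 0.288 in limma). Fabp1, Lct and Slc2a2 averaged below the array medians in both groups. The mean level of the markers ran from 10.47 to 10.64 with TUDCA and from 10.51 to 10.80 with vehicle. The part of enterocyte content in the Slc26a6 result was not tested.

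**Figure D3:**
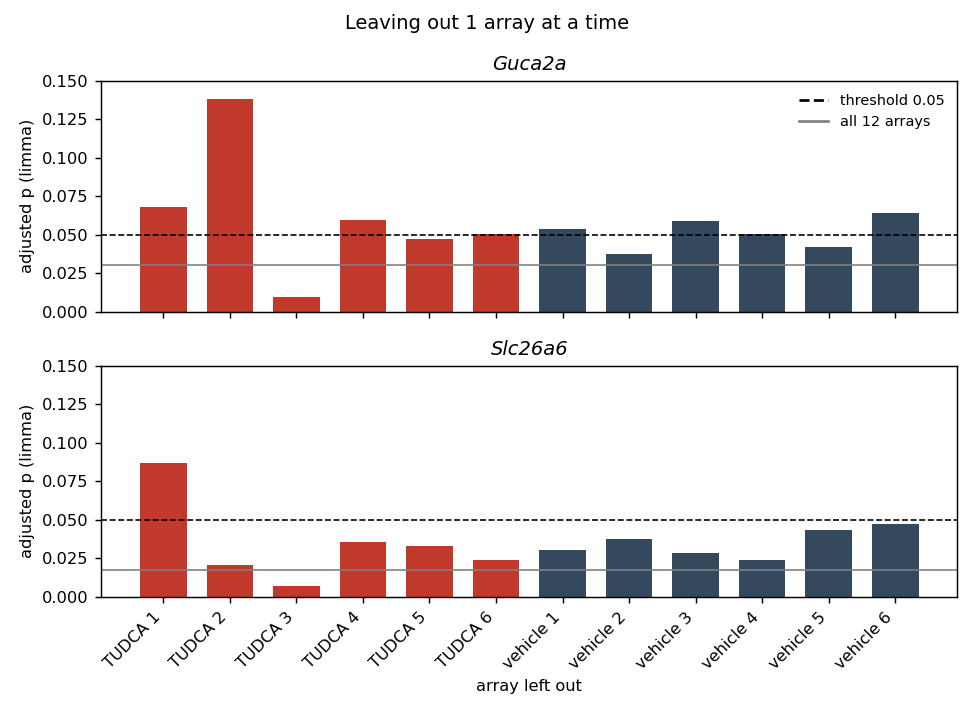
Adjusted p of limma for Guca2a (top) and Slc26a6 (bottom) when the array named below each bar was left out, TUDCA arrays in red and vehicle arrays in dark blue, with the threshold of 0.05 dashed and the value over all 12 arrays in grey. Guca2a lies above 0.05 in 8 of the 12 fits and Slc26a6 in 1, without TUDCA replicate 1.

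Slc26a3, the main chloride/bicarbonate exchanger of the surface epithelium and the gene of congenital chloride diarrhoea in humans, had lower values with TUDCA without passing. It ran from 9.83 over 10.02 to 10.12 with TUDCA and from 9.92 over 10.20 to 10.47 with vehicle. All 6 TUDCA arrays lay below the vehicle mean of their range, but vehicle replicate 6 (9.92) lay within the TUDCA values. The difference was −0.21 ± 0.09 (SE; 95% interval −0.41 to −0.02; adjusted p = 0.31 in limma), with −0.22 and −0.20 in the low and the high range. Left-out arrays moved it between −0.32 and −0.11 without a call.

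The exchangers Slc26a3 and Slc26a6 could not be separated from each other: their changes differed by 0.14 ± 0.10 (SE; adjusted p = 0.191 over 8 pairs by exact permutation). Cftr and Slc26a3 differed in change by 0.24 ± 0.09 (SE), in 6 of 6 TUDCA arrays, which did not pass after adjustment (exact permutation p = 0.04, adjusted p = 0.107).

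Slc9a3, the sodium/proton exchanger NHE3 that guanylin signalling inhibits at the protein level, was the most variable of the 9 genes. Its values ran from 8.15 over 8.58 to 9.44 with TUDCA and from 8.21 over 8.88 to 9.86 with vehicle. The ranges overlapped almost completely, yet all 6 TUDCA arrays lay below the vehicle mean of their own range. Means within the ranges were 8.29 with TUDCA and 8.58 with vehicle in the low range, and 8.81 with TUDCA and 9.62 with vehicle in the high range. Slc9a3 was thus higher in the high range, the opposite of Guca2a and Guca2b. The difference of −0.55 ± 0.20 (SE; 95% interval −0.97 to −0.13) did not pass (adjusted p = 0.199 in limma). Without the range term it was −0.29 (adjusted p = 0.669), and within the ranges it was −0.29 in the low and −0.81 in the high range.

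The difference between the ranges in the effect of TUDCA on Slc9a3 was 0.52 ± 0.38 (SE; adjusted p = 0.767 in limma), low minus high. No probe set of the whole table passed this test of unequal effects (0 of 23991 after adjustment, 1843 at an unadjusted p under 0.05, or 7.68%), and the adjusted p of the 9 genes ran from 0.668 (Slc4a4) to 0.991 (Slc26a3).

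**Figure D4:**
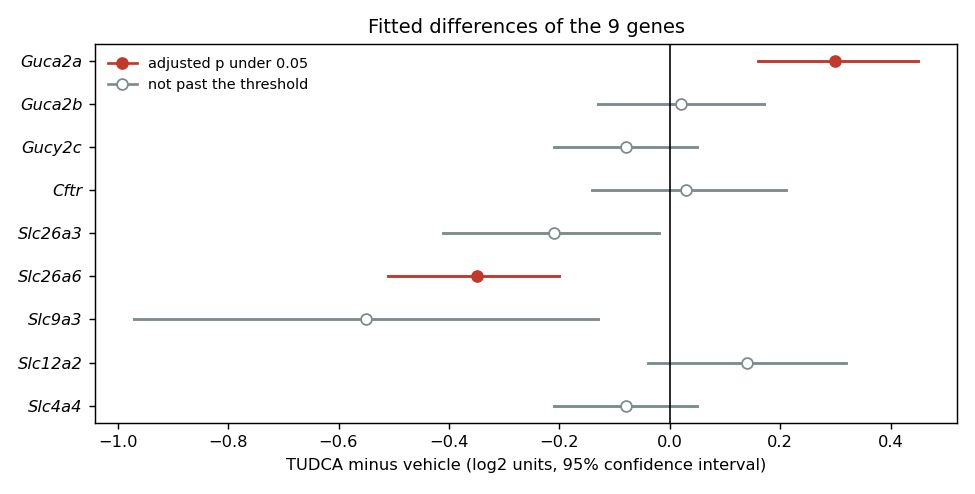
Fitted log2 difference, TUDCA minus vehicle, of the 9 genes with its 95% confidence interval; filled red points passed the adjusted threshold of 0.05. Guca2a (0.30) and Slc26a6 (−0.35) passed, and the intervals of Slc26a3 and Slc9a3 lie below 0 although their adjusted p-values (0.31 and 0.199) did not pass.

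Slc12a2, the sodium-potassium-chloride cotransporter NKCC1 that loads crypt cells with chloride, ran from 10.04 over 10.45 to 10.61 with TUDCA and from 10.13 over 10.35 to 10.46 with vehicle. Of the TUDCA arrays 5 lay above the vehicle mean of their range, and TUDCA replicate 6 (10.04) lay apart from the other TUDCA values, which began at 10.41. The difference was 0.14 ± 0.09 (SE; 95% interval −0.04 to 0.32; adjusted p = 0.513 in limma), and 0.19 without that array (adjusted p = 0.195).

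Slc4a4, the sodium bicarbonate cotransporter NBCe1, had the narrowest TUDCA values, from 10.40 over 10.47 to 10.54, against 10.36 over 10.53 to 10.70 with vehicle. The TUDCA values all lay within the vehicle range. The difference was −0.08 ± 0.06 (SE; 95% interval −0.21 to 0.05; adjusted p = 0.619 in limma), with 0.03 in the low and −0.19 in the high range. The loaders Slc12a2 and Slc4a4 differed in change by 0.22 ± 0.10 (SE), in 6 of 6 TUDCA arrays relative to their range, without passing (exact permutation p = 0.0711, adjusted p = 0.114). With the mean of all vehicle arrays set to 0, TUDCA replicate 6 (−0.151) lay between the vehicle arrays of its range (−0.148 and −0.168).

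Genes that act with these members were taken from 11 lists of 123 genes, of which 112 were measured. Across them 3 rose and 2 fell, and their median difference was −0.01, against 0.01 over all probe sets. The share called, 5 of 112, stands beside the 2.52% called among all probe sets and is not read as particular to the lists.

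Among 21 genes of cyclic GMP turnover, natriuretic peptides and other guanylate cyclases, 1 rose and 1 fell, both enzymes that degrade cyclic GMP. Pde9a, a phosphodiesterase specific for cyclic GMP, ran from 10.17 to 10.48 with TUDCA and from 10.59 to 10.87 with vehicle. The groups did not overlap, and the difference was −0.33 ± 0.07 (SE; adjusted p = 0.0259 in limma). Pde2a, which degrades cyclic AMP and cyclic GMP, ran from 7.94 to 8.50 with TUDCA and from 7.77 to 8.20 with vehicle. Its groups overlapped only through TUDCA replicate 6 (7.94), and the difference was 0.37 ± 0.08 (SE; adjusted p = 0.0254), in 6 of 6 TUDCA arrays relative to their range. Pde5a, the cyclic GMP phosphodiesterase blocked by sildenafil, had a difference of 0.09 ± 0.07 (SE; adjusted p = 0.61), and Prkg2, the kinase that carries the guanylin signal to Cftr, of −0.21 ± 0.10 (SE; adjusted p = 0.365).

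Leaving out any of TUDCA replicates 1 and 5 and vehicle replicates 2 and 5 ended the call of Pde9a (highest adjusted p 0.0838 in limma). For Pde2a the same was so of TUDCA replicates 1, 2 and 5 and vehicle replicates 1 and 6 (highest adjusted p 0.106). Without the range term Pde2a stood at 0.28 (adjusted p = 0.192).

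Of 20 genes of cyclic AMP signalling, scaffolds and kinases that act on Cftr or Slc9a3, 1 rose and none fell. It was Ptger4, the EP4 receptor through which prostaglandin E2 raises cyclic AMP. Ptger4 ran from 8.51 to 9.26 with TUDCA and from 8.07 to 8.39 with vehicle, so that the groups did not overlap. The difference was 0.54 ± 0.09 (SE; adjusted p = 0.00615 in limma), and no single array ended the call (highest adjusted p 0.0289). Within the low or the high range alone, with fewer arrays, the call ended (0.43 and 0.66, adjusted p = 0.0501 and 0.219). Chp2, a calcineurin-like cofactor of sodium/proton exchangers, was next by p and did not pass (−0.21 ± 0.07 SE, adjusted p = 0.157). The scaffold Slc9a3r1, which tethers Cftr and Slc9a3, stood at −0.08, and the receptor of the secretory neuropeptide VIP, Vipr1, at 0.04, neither passing.

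The other members of the transporter families were mostly near 0. Of 9 other Slc26 genes 1 fell, Slc26a2, a sulphate transporter, with 10.18 to 10.36 under TUDCA and 10.46 to 10.91 under vehicle. The groups did not overlap, the difference was −0.38 ± 0.07 (SE; adjusted p = 0.0133 in limma), and again no single array ended the call (highest adjusted p 0.049), whereas the fits within the low or the high range alone did (adjusted p = 0.0563 and 0.325). Slc26a11 was next (−0.11 ± 0.08 SE, adjusted p = 0.585), and the genes of this list other than Slc26a2 averaged at or below the array medians. None of 8 other Slc4, 6 other Slc9 or 7 other Slc12 genes passed. The smallest p-values were those of Slc4a8 (−0.19, adjusted p = 0.333) and Slc4a11 (0.16, adjusted p = 0.47), of Slc9a9 (−0.16, adjusted p = 0.529) and Slc9a5 (0.07, adjusted p = 0.741), and of Slc12a7 (−0.27, adjusted p = 0.129, and 0.0467 without TUDCA replicate 3) and Slc12a1 (0.22, adjusted p = 0.281).

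Chloride secretion needs potassium channels on the blood side to keep the cell negative. Of 6 measured channel and sodium pump genes none passed. Kcne3, the subunit that holds the channel Kcnq1 open, stood at 0.49 ± 0.13 (SE; adjusted p = 0.0767 in limma), and Kcnn4, a calcium-activated potassium channel, at 0.34 ± 0.09 (SE; adjusted p = 0.0644), both with 6 of 6 TUDCA arrays above the vehicle mean of their range. Kcnn4 passed without TUDCA replicate 5 (0.38, adjusted p = 0.0301). Kcne3 was at 0.83 in the low and 0.14 in the high range. It passed within the low range alone (adjusted p = 0.005 in limma) and when vehicle replicate 5 was left out (0.69, adjusted p = 0.00246). Kcnq1 itself stood at 0.04 and the pump subunit Atp1b1 at 0.01.

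None of 7 other chloride channel genes passed, the nearest being Ano1, a calcium-activated chloride channel (−0.27 ± 0.10 SE, adjusted p = 0.235), and Best2, a bestrophin (0.28 ± 0.12 SE, adjusted p = 0.29). Of 12 genes of sodium and water uptake none passed. Aqp1, a water channel, stood at −0.70 ± 0.19 (SE; adjusted p = 0.0654), below the vehicle mean of its range in 6 of 6 TUDCA arrays, and it passed without TUDCA replicate 3 or 4 or vehicle replicate 6 (adjusted p down to 0.0264). It also passed without the range term (−0.88, adjusted p = 0.0451 in limma) and within the low range alone (−0.95, adjusted p = 0.0195). Scnn1a, a subunit of the epithelial sodium channel, stood at 0.21 (adjusted p = 0.135). None of the 6 carbonic anhydrases listed for bicarbonate supply passed, with Car13 at 0.13 and Car12 at −0.22. Another carbonic anhydrase, Car1, listed here as a colon marker, rose by 1.29 ± 0.28 (SE; adjusted p = 0.0233 in limma). It ran from 5.09 to 7.04 on TUDCA arrays and from 3.75 to 5.12 on vehicle arrays. Its mean was 6.00 with TUDCA and 4.54 with vehicle, the latter below the array medians. Left-out arrays and other settings were not tried for Car1.

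Of 11 transcription factors of the gut epithelium 1 rose, Spdef, named above among the goblet markers, with 7.51 to 7.85 on TUDCA arrays and 7.24 to 7.46 on vehicle arrays. Leaving out TUDCA replicate 1 or TUDCA replicate 2 ended the call (adjusted p = 0.0711 and 0.068 in limma). Hnf4g, a nuclear receptor of enterocytes, was next at −0.22 ± 0.06 (SE; adjusted p = 0.0705). Cdx2, the intestinal homeobox factor known to drive Gucy2c, stood at −0.09.

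**Figure D5:**
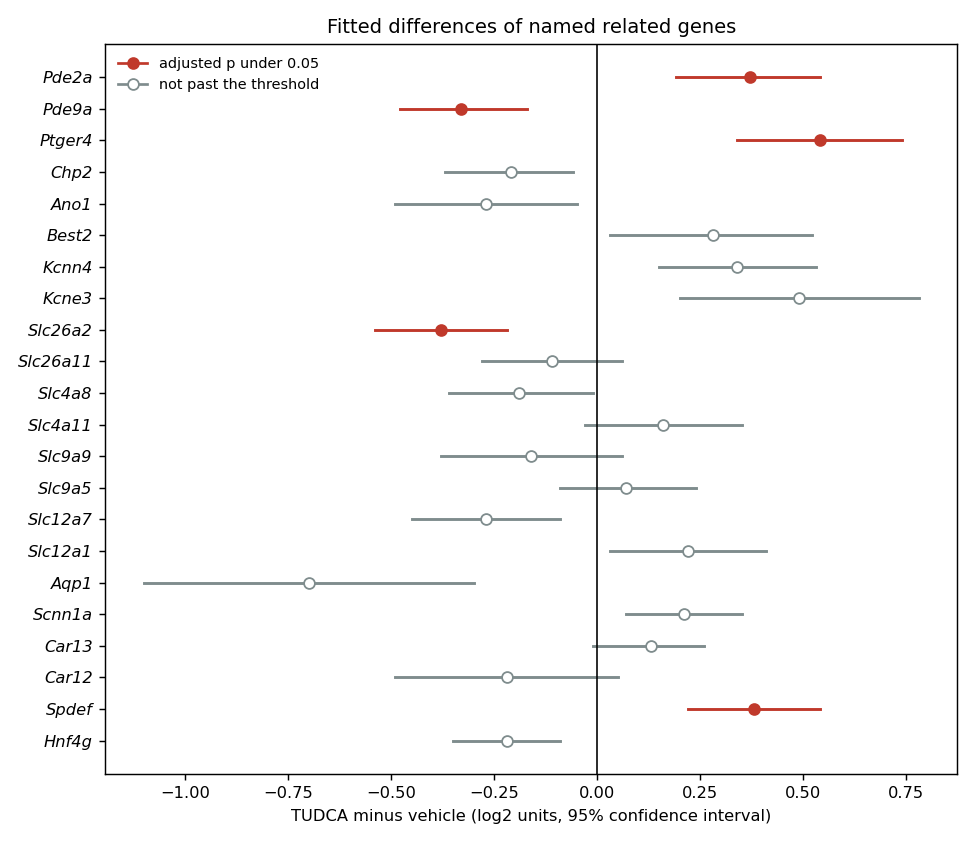
Fitted log2 difference, TUDCA minus vehicle, with its 95% confidence interval, for the 22 related genes named by rule (every gene past the threshold and those with the smallest p of each list). Filled red points passed the adjusted threshold of 0.05: Pde2a, Ptger4 and Spdef lie above 0, and Pde9a and Slc26a2 below it.

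The probe sets most like the called members were sought among 11070 single-gene probe sets brighter than the median, by the root mean square difference of the centred log2 values over the 12 arrays. Slc26a6 was most like Pde9a (0.0785), then Tonsl, a DNA repair factor (0.0787). Guca2a was most like Thap4 (0.0735), then Mical2, an actin-oxidising enzyme (0.0796), and Krt8, a keratin of simple epithelia (0.084). The standard deviation over the arrays was 0.231 for Slc26a6 and 0.205 for Guca2a. Such neighbours were picked from many candidates over 12 arrays and are a description of these arrays.

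Donor T cells are the attacking cells of this model. The T cell markers measured here, which do not tell donor from recipient cells, moved with the groups. Of 8 markers 6 fell and none rose, with the mean level from 5.78 to 7.35 on TUDCA arrays and from 7.27 to 8.05 on vehicle arrays. The difference was −0.93 for the receptor component Cd3e and −1.97 for the granzyme Gzma. Crypt base and dividing cell markers (0 of 9 called, median difference 0.10), enteroendocrine markers (0 of 7, median 0.10) and smooth muscle markers (0 of 6, median −0.16) had no member past the threshold in limma. The part of these cells in the results for Guca2a, Slc26a6, Pde9a, Pde2a, Ptger4 and Slc26a2 was not tested.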

How the data were processed

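Biotin-labelled RNA of 12 samples of mouse small intestine was hybridised to Affymetrix arrays, per the labels' protocols. The deposited values are log2 expression, made with oligo and RMA (no versions given) according to the submitters' processing notes. Filters on probe sets are not given in the sources used here. Of 23991 probe sets 21557 named 1 gene in the platform annotation, 787 several and 1647 none. All were tested, and symbols were updated through the gene ID.

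Differences were fitted in R 4.3.3 with limma 3.58.1 (lmFit, eBayes with a trend, treatment and number range as terms), with Benjamini-Hochberg adjustment over all probe sets, and the fit was tested on simulated data. Sample numbers ran from 57 to 70 in the low and from 153 to 166 in the high range. The p-values treat arrays as separate mice, going by the sample numbers, and otherwise measure the spread between these samples. Named genes were the 9 members, the related genes past the threshold, the genes with the smallest p of each list (2 per list), and the 3 nearest profiles of each called member, of which 1 is not reported here; Prkg2, Pde5a, Vipr1, Slc9a3r1, Kcnq1, Atp1b1, Cdx2 were named for their role after values were seen. Cell type markers named singly came from their lists without such a rule of choice, and Gzma had the lowest difference of the T cell list. Members and lists were chosen with earlier results of these data known. Of the remaining marker lists, Paneth cell (0 of 4), tuft cell (0 of 5) and reticular cell (0 of 7) markers had no member called. The same was so of proximal (0 of 7) and distal (0 of 5) small intestine markers. Of the colon markers 1 of 5 was higher, Car1. Listed genes without a probe set of their own were not analysed here. Same-numbered TUDCA and vehicle arrays had correlations of their deviations from −0.06 to 0.261, and 7 of 12 arrays correlated best with their own number. Replicate numbers follow the order of the sample numbers within each group. Replicates 3 and 4 thus set a TUDCA array of the high range beside a vehicle array of the low range. The correlations do not settle whether the replicate numbers are pairs. The main fit did not take them as pairs, and fits with the replicate number as a block are given below. Background correction was left as the authors made it.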

Additional observations from a re-analysis of the deposited data

Results flagged for a closer look

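In the 62 groups of 6 arrays formed by the 9 members and the 22 named related genes, 3 values lay farther from their nearest neighbour, relative to the group's range, than Dixon's 95% critical value for 6 samples. Chance alone flags about 1 in 20 groups. Slc12a2 in TUDCA replicate 6 was 10.04, with the other TUDCA arrays from 10.41 to 10.61. Pde2a in the same array was 7.94, with the others starting at 8.34. Leaving that array out gave a difference of 0.41 (adjusted p = 0.00325 in limma). Slc4a11 in TUDCA replicate 3 was 5.05, with the others from 5.35 to 5.53. No member or named gene passed the test of unequal responses between the number ranges in limma.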

How the results depend on the processing

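Guca2a was no longer called when the number range was not a term (0.20, adjusted p = 0.341 in limma), with eBayes without a trend (0.30, adjusted p = 0.0642), within the low range alone (0.37, adjusted p = 0.0904) and within the high range alone (0.24, adjusted p = 0.475). That of Slc26a6 ended within the low range alone (−0.31, adjusted p = 0.145) and the high range alone (−0.39, adjusted p = 0.309), fits with fewer arrays. With the replicate number as a block, Guca2a was at 0.20 (adjusted p = 0.134), and with block and range at 0.28 (adjusted p = 0.09), while Slc26a6 stayed called (−0.38 and −0.41). For the count of probe sets higher and the count of probe sets lower, block and range together gave 85 and 190, against 241 and 364, and 7 of 12 arrays correlated best with their own number.

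Sign changes occurred in genes near 0. Guca2b was at −0.07 without the range term, with the block and with block and range, and at −0.01 in the low range alone. Cftr was at −0.06 without the range term and with the block and at −0.03 in the high range, Slc4a4 at 0.03 in the low range and Slc9a5 at −0.04 in the high range. The count of probe sets higher was 6 in the high range alone, 436 with array weights and 429 at a threshold of 0.1, and the count of probe sets lower was 3 in the high range alone.

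With 1 array left out, differences ran from 0.24 to 0.33 for Guca2a, −0.01 to 0.06 for Guca2b, −0.01 to 0.08 for Cftr and −0.41 to −0.32 for Slc26a6. Counts ran from 91 to 292 higher and from 151 to 417 lower, lowest without TUDCA replicate 1. Guca2a against Gucy2c ran from 0.34 to 0.42, and was at 0.31 without the range term (adjusted p = 0.0606 by exact permutation) and 0.31 with the replicate block (adjusted p = 0.167, with 64 sign flips). Guca2a against Guca2b ran from 0.24 to 0.33 and passed without TUDCA replicate 3 (adjusted p = 0.0267). No other member or pair changed its call under the alternatives tried. Of the related genes, the calls of Ptger4, Pde9a, Pde2a and Spdef ended with block and range (adjusted p = 0.0513, 0.0559, 0.0798 and 0.124) and in the high range alone. The low range alone ended those of Ptger4, Pde9a, Pde2a and Slc26a2, the high range alone also that of Slc26a2, and eBayes without a trend that of Pde9a (adjusted p = 0.0524). Aqp1 passed with the replicate block (−0.88, adjusted p = 0.00137) and with block and range (−0.84, adjusted p = 0.0161), and with dim probe sets left out (adjusted p = 0.0476), Car12 with the block (−0.33, adjusted p = 0.0307), Kcnn4 and Hnf4g with dim probe sets left out (adjusted p = 0.0412 and 0.0441), Kcnn4 also after a second quantile normalisation (adjusted p = 0.0421), and Kcnn4 and Kcne3 with array weights (adjusted p = 0.0439 and 0.0125). Slc9a3 moved to −0.29 without the range term (adjusted p = 0.669) and with the block (adjusted p = 0.59), where Slc26a6 at −0.38 lay farther from 0. The causes were not tested. Signal over background could not be judged, as no detection calls were used.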
